A study of Mus musculus with 12 samples.

Results

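Integrins are the cell-surface receptors through which cells hold on to the matrix around them, and laminins are matrix proteins that many of them bind. All genes whose symbols name an integrin alpha chain (Itga with a number or a letter), an integrin beta chain (Itgb with a number) or a laminin chain (Lama, Lamb or Lamc with a number) were taken, whatever their values. They came to 36 of the 24421 genes in the deposited table, 25 integrin and 11 laminin genes. The 12 bulk RNA-seq libraries are from mice: 6 came from sarcomas of bone or bone marrow in p53 knockout mice (KO tumor), 3 from marrow mesenchymal stem cells of p53 knockout mice (KO MSC) and 3 from the same kind of cell of p53 wild-type mice (WT MSC). MSCs were sorted as cells without CD45, Ter119 and CD31 and with the leptin receptor (LepR) and CD140a, and all material is labelled as freshly isolated. The sources used here give no age, strain, allele or Cre driver of the knockout. Since no label ties a library to an animal of its own, p-values reflect variation among these 12 libraries, part of which may be technical.

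An integrin is a pair of 1 alpha and 1 beta chain, and the pair decides what is bound. Pairs with the beta1 chain bind collagens, laminins or fibronectin, pairs with alphaV bind vitronectin and other proteins that carry the RGD motif, and pairs with beta2 or beta7 are found on leukocytes. A laminin is a trimer of 1 alpha, 1 beta and 1 gamma chain, laid down in the basement membranes under epithelia and around blood vessels, muscle fibers and nerves. In marrow, LepR+ stromal cells lie around blood vessels and hold blood-forming cells near them, partly through VCAM1, to which alpha4 integrins of blood cells bind.

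Values are the authors' stabilized and batch-adjusted log2 values, in which a gene with few reads sits at a floor. Of the 36 genes, 17 were at the floor in 1 library or more and 19 in none. Genes at the floor numbered 9251 to 10244 in KO tumors, 2632, 11253 and 12336 in the libraries labelled KO MSC 1 to 3, and 3730, 10610 and 10931 in WT MSC 1 to 3. Of the 36, KO tumors had 5 to 7 at the floor, the libraries labelled KO MSC 1, 13 and 14, and WT MSC 2, 8 and 11. Differences of low genes are understated on this scale. Shared floors put WT MSC 1, the library labelled KO MSC 1 and KO tumors 1 to 3 in 1 batch and the other 7 libraries in another. Trp53, the targeted gene, went against the label in part. It lay between 6.79 and 9.16 in KO tumors, at 10.49, 9.76 and 6.96 in the libraries labelled KO MSC, and at 9.96, 10.04 and 10.61 in WT MSC.

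No sort of tumor cells is described in the labels' protocols, and markers of other cell types moved with the groups. Over all tested genes, 2.70% rose and 2.28% fell in KO tumors against KO MSC, and 10.4% rose and 10.9% fell against WT MSC. Of 12 macrophage markers, 10 rose in KO tumors against KO MSC and 11 against WT MSC. Their values summed over the list were 120.2 to 157.7 in KO tumors, 66.8 to 77.8 in the libraries labelled KO MSC and 63.7 to 79.0 in WT MSC. None was at the floor in any KO tumor, against 1 to 8 of the 12 in a library labelled KO MSC and 1 to 6 in a WT MSC library. Of 10 endothelial markers, 5 rose in KO tumors against KO MSC and 8 against WT MSC, with sums of 70.1 to 92.1 in KO tumors, 55.3 to 59.6 in KO MSC and 54.6 to 58.8 in WT MSC. Of 8 markers of LepR+ stromal cells, 5 fell in KO tumors against KO MSC and all 8 fell against WT MSC, with sums of 53.9 to 72.0 in KO tumors, 90.8 to 96.8 in KO MSC and 100.7 to 109.0 in WT MSC. None of the 8 skeletal muscle markers passed, and their sums ran from 43.4 to 116.6 in KO tumors, 39.2 to 46.9 in KO MSC and 37.7 to 45.5 in WT MSC. The LepR+ stromal markers were above the floor in every MSC library, with means of 11.34 to 12.10 in KO MSC and 12.59 to 13.63 in WT MSC. MSC libraries also held RNA of blood cell markers, in amounts that varied among them. Neutrophil means were 7.99 to 11.54 in KO MSC, 6.90 to 10.07 in WT MSC and 5.41 to 7.85 in KO tumors. Erythroid means were 8.52 to 12.41 in KO MSC, 9.02 to 11.79 in WT MSC and 4.96 to 8.77 in KO tumors. Of 8 smooth muscle and pericyte markers, 1 rose in KO tumors against KO MSC, and 3 rose and 1 fell against WT MSC. Of 5 tested erythroid markers 3 fell against each MSC group, and none of 4 Schwann cell and 6 epithelial markers passed. In bulk libraries, fewer cells of a type and less RNA per cell cannot be told apart. The part of these markers in the results on integrins and laminins was not tested.

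**Figure D1:**
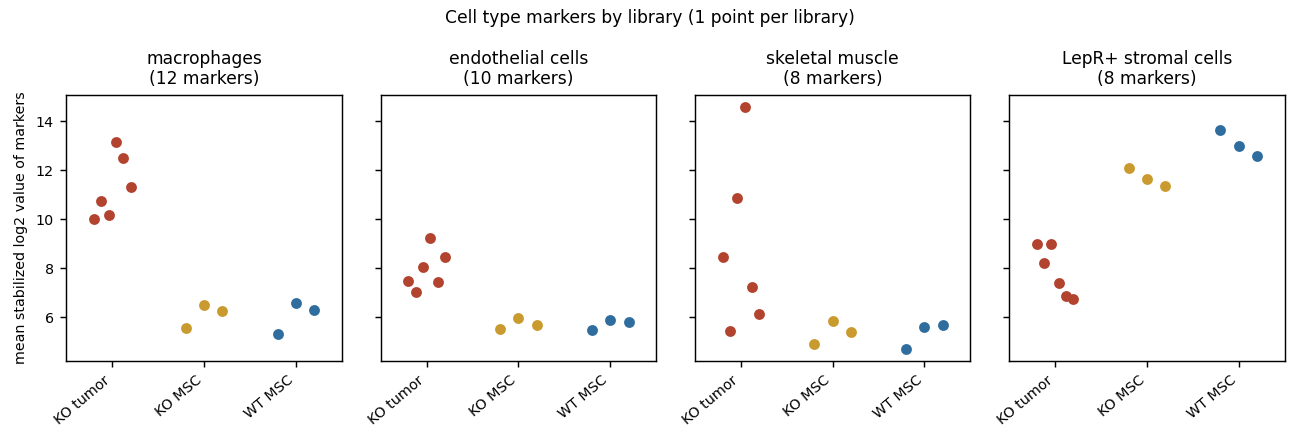
Mean stabilized log2 value of 4 marker lists (vertical axes) in each library, with KO tumors left of KO MSC and WT MSC; each point is 1 library and the lists hold 12 macrophage, 10 endothelial, 8 skeletal muscle and 8 LepR+ stromal markers. Macrophage means lay between 10.02 and 13.14 in KO tumors, above the 5.57 to 6.48 of KO MSC and the 5.31 to 6.58 of WT MSC, and muscle means reached 14.57 in KO tumor 4.

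Against WT MSC, KO tumors had less RNA for the collagen receptor chains Itga1 and Itga11, the nephronectin receptor chain Itga8, the common partner chain Itgb1 and the laminin chains Lama1, Lama4 and Lamc1. More RNA was found for Itgax, a leukocyte integrin chain. Thus 7 of the 35 genes tested fell, beside 10.9% of the 18948 tested genes, and 1 rose, beside 10.4%. The other 27 did not pass (limma, adjusted p under 0.05 by the Benjamini-Hochberg method over all tested genes). In the same 7, every KO tumor was below every WT MSC library (12.3% of tested genes). In 3 genes, Itgax and Itga7 among them, every KO tumor was above them (12.9%). The median difference over the 35 genes was -0.05, and over all tested genes -0.06, or 0.05 with upper-quartile scaling.

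Against the libraries labelled KO MSC, KO tumors had more RNA for Itga6, a laminin receptor chain, and Itgb3, a chain of the vitronectin receptor, and less for Lama1. Thus 2 of 35 genes rose (2.70% of tested genes) and 1 fell (2.28%), while 32 did not pass. Every KO tumor was above every KO MSC library in 5 genes, Itga6, Itga7, Itgax and Itgb3 among them (8.0% of tested genes). Every KO tumor was below them in 2 (Itga8 and Lama1; 5.39%). The median difference was 0.28 over the 35 genes and 0.04 over all tested genes. Over all tested genes 512 rose and 432 fell, against 520 and 961 with quantile scaling.

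Between the libraries labelled KO MSC and WT MSC no integrin or laminin gene passed (limma, 0.00% of tested genes; the lowest adjusted p of any gene was 0.551). Without adjustment, 0 of the 35 genes were higher at p under 0.05 (2.57% of tested genes) and 10 were lower (6.07%). In the same 10 genes, every library labelled KO MSC was below every WT MSC library (8.93% of tested genes). Among them were Itga1, Itga8, Itga11, Itgb1, Itgb5, Lama4, Lamb1, Lamb2 and Lamc1. The median difference was -0.64 over the 35 genes and -0.01 over all tested genes, with 22 of the 35 below 0 (52.2% of tested genes). Without the library labelled KO MSC 3, which had the most genes at the floor, the median was -0.41, and 8 genes were lower and 2 higher at an unadjusted p under 0.05. It moved further without KO MSC 2 (-0.37, with 9 lower) and without WT MSC 2 (-0.35, with 7 lower), and 0 genes were higher in both cases. The 2 batches gave medians of 0.00 (1 library against 1) and -0.44 (2 against 2). The 3 comparisons share libraries and are not independent of each other.

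**Figure D2:**
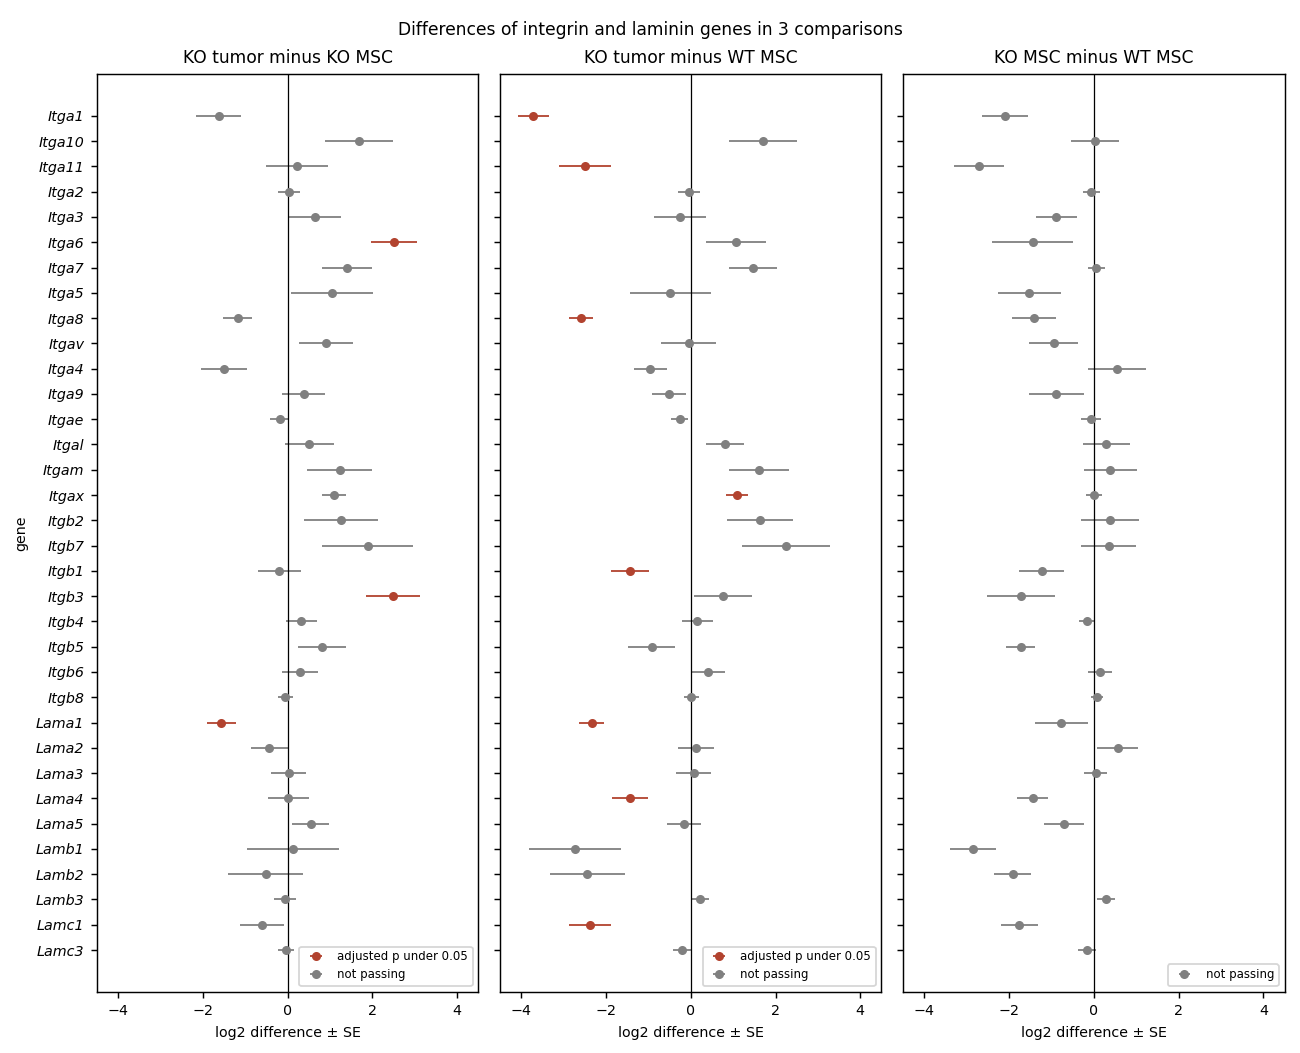
Difference in stabilized log2 value with its standard error (horizontal axes) for integrin and laminin genes, 1 row a gene, in KO tumor minus KO MSC, KO tumor minus WT MSC and KO MSC minus WT MSC; red points passed at an adjusted p under 0.05 and gray points did not. The passing differences run from -3.72 (Itga1, KO tumor minus WT MSC) to 2.51 (Itga6, KO tumor minus KO MSC), and no point passed between the MSC groups.

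The collagen receptor chains were Itga1, Itga2, Itga10 and Itga11, all partners of beta1. Itga1 (chromosome 13, 114953096 to 115101964, minus strand; mm10 as for all positions) lay between 5.70 and 7.12 in KO tumors, with a median of 6.72. It was at 9.18, 8.26 and 7.07 in the libraries labelled KO MSC and at 10.34, 10.38 and 10.06 in WT MSC. KO tumors and WT MSC were far apart, and the libraries labelled KO MSC stood between them, the third of them inside the tumors' range. Itga1 fell by 3.72 ± 0.36 (SE) in KO tumors against WT MSC (limma, adjusted p = 0.00071), the largest fall of the 35 genes, with -3.56 and -3.92 within the batches. Against KO MSC its difference was -1.63 ± 0.53 (adjusted p = 0.0958), and it passed with quantile scaling, in 1 fit of all 12 libraries and without KO MSC 3 (adjusted p from 0.0295 to 0.74 over the alternatives). The difference between KO MSC and WT MSC was -2.09 ± 0.54 (adjusted p no lower than 0.551). Pelo lies inside Itga1 on the same strand, so its reads can be counted for either gene.

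Itga11, the chain for fibrillar collagen on fibroblasts and bone-forming cells (chromosome 9, 62677826 to 62783982, plus strand), lay between 4.91 and 8.55 in KO tumors, with a median of 7.11. It was at 8.11, 6.55 and 5.85 in the libraries labelled KO MSC and at 9.57, 9.58 and 9.50 in WT MSC. WT MSC libraries were nearly equal, and every other library was below them. Itga11 fell by 2.5 ± 0.62 in KO tumors against WT MSC (adjusted p = 0.017). Leaving out any 1 WT MSC library or adding the replicate block ended the call (adjusted p up to 0.0745 over the alternatives). Between KO MSC and WT MSC its difference was -2.72 ± 0.59 (unadjusted p = 0.0018). Itga10, a cartilage chain, did not pass (1.70 ± 0.80 in KO tumors against WT MSC, adjusted p = 0.144) and was at 5.31 to 9.46 in KO tumors, 4.5 to 6.23 in KO MSC and 4.33 to 6.0 in WT MSC. Itga2 stayed between 4.51 and 5.81 in KO tumors, 4.99 and 5.42 in KO MSC, and 4.99 and 5.48 in WT MSC, and was at the floor in 6 of 12 libraries.

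The chains of RGD receptors were Itga5, Itga8 and Itgav. Itga8, whose pair with beta1 binds nephronectin (chromosome 2, 12106632 to 12301922, minus strand), lay between 4.81 and 5.45 in KO tumors, with a median of 5.27 and 2 tumors at the floor. It was at 7.13, 6.31 and 5.62 in the libraries labelled KO MSC and at 7.64, 8.15 and 7.52 in WT MSC. The 3 groups did not overlap, with KO tumors lowest and WT MSC highest. Itga8 fell by 2.6 ± 0.28 in KO tumors against WT MSC (adjusted p = 0.000945). Against KO MSC its difference was -1.18 ± 0.34 (adjusted p = 0.066), and it passed in 4 of 18 alternatives (quantile and upper-quartile scaling, batch as a covariate, and without KO MSC 3; adjusted p from 0.00977 to 0.545). The difference between KO MSC and WT MSC was -1.41 ± 0.52 (adjusted p = 0.554). E030013I19Rik lies across Itga8 on the other strand, and without strand in the libraries their reads cannot be told apart.

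The promoters of Itga1 and Itga8 are shown because these genes had the largest falls and lowest adjusted p-values of the integrin genes. They are RefSeq sequences of build GRCm38.p6, minus strand, at chr13:115101915-115102214 and chr2:12301895-12302194, from 250 bases before to 50 after the start, with CG pairs in capitals. Itga1 held 12 CG pairs and Itga8 held 23, and the median over the 32851 promoters of the table was 7, with quartiles of 3 and 20. The number of CG pairs is a description of the sequence, chosen after the values were seen.
Itga1: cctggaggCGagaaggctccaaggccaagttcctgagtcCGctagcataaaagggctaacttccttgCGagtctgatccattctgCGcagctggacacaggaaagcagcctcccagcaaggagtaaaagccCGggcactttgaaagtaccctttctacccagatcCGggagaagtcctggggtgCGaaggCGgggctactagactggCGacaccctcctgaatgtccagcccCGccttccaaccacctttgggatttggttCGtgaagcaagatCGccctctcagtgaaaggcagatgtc
Itga8: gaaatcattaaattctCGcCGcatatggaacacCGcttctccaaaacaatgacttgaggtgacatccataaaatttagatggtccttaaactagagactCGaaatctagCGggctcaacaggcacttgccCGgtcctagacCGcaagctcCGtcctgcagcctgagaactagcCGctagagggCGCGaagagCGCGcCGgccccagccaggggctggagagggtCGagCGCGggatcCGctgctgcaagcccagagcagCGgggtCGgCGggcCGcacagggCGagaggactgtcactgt

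Itga5, the fibronectin receptor chain, and Itgav, the chain of vitronectin receptors, passed in no comparison. Itga5 lay between 6.66 and 11.67 in KO tumors, at 8.38, 7.92 and 5.99 in KO MSC and at 7.84, 9.61 and 9.43 in WT MSC, so that tumors overlapped both groups of MSC. Itgav lay between 9.05 and 12.06 in KO tumors, at 8.28, 9.44 and 9.49 in KO MSC and at 9.01, 10.88 and 10.18 in WT MSC.

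The chains of laminin receptors were Itga3, Itga6 and Itga7. Itga6 (chromosome 2, 71745616 to 71858416, plus strand) pairs with beta1 or with beta4, the pair of hemidesmosomes. It lay between 7.43 and 9.18 in KO tumors, with a median of 8.0. It was at 6.81, 5.10 and 5.10 in the libraries labelled KO MSC, the last 2 being the floor, and at 5.73, 9.30 and 6.30 in WT MSC. All KO tumors were above all KO MSC libraries, while WT MSC 2 was above every tumor. Itga6 rose by 2.51 ± 0.54 in KO tumors against KO MSC (adjusted p = 0.0252), with 0.92 and 3.52 within the batches, and leaving out KO MSC 2 or KO tumor 5 ended the call (adjusted p up to 0.206 over the alternatives). The call was also lost in batch 2 alone and with the replicate block. Against WT MSC the difference of Itga6 was 1.06 ± 0.71 (adjusted p = 0.291). Without WT MSC 2 it was 2.16 and passed (adjusted p = 0.025, with a range of 0.025 to 0.782 over the alternatives).

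Itga7, the laminin receptor chain of muscle, lay between 5.69 and 8.64 in KO tumors, with a median of 6.15, at 5.10, 5.45 and 5.04 in KO MSC and at 4.95, 5.04 and 5.43 in WT MSC. Every KO tumor was above every MSC library, and KO tumor 4, which also had the highest skeletal muscle markers, was highest. The differences, 1.41 ± 0.59 against KO MSC (adjusted p = 0.168) and 1.47 ± 0.57 against WT MSC (adjusted p = 0.0924), did not pass. The second passed with upper-quartile scaling and without KO tumor 4 (adjusted p from 0.0302 to 0.253 over the alternatives). Mettl7b overlaps Itga7 on the other strand. Itga3, which pairs with beta1 on epithelia, lay between 5.32 and 8.29 in KO tumors, 5.54 and 6.31 in KO MSC, and 6.29 and 7.45 in WT MSC.

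Itga4 and Itga9 bind VCAM1 and other ligands, alpha4 mainly on blood cells. Itga4 lay between 6.11 and 7.45 in KO tumors, at 9.20, 8.64 and 6.85 in KO MSC and at 7.68, 7.02 and 8.37 in WT MSC, and did not pass against KO MSC (-1.49 ± 0.54, adjusted p = 0.128) or WT MSC (-0.95 ± 0.40, adjusted p = 0.111). Against KO MSC it passed with quantile scaling and, at -2.18, without KO MSC 3 (adjusted p from 0.0205 to 0.943 over the alternatives). In the libraries labelled KO MSC 1 to 3, neutrophil markers had means of 11.54, 9.04 and 7.99, in the same order as Itga4. Erythroid markers, with means of 12.41, 10.84 and 8.52, had this order too. In WT MSC 1 to 3 the order of Itga4 was not that of either list. Neutrophil means were 10.07, 8.72 and 6.90 there, and erythroid means 11.79, 9.02 and 10.02. The part of these markers in the values of Itga4 was not tested. Itga9 lay between 6.20 and 7.54 in KO tumors, 5.57 and 7.56 in KO MSC, and 6.98 and 8.25 in WT MSC.

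The leukocyte chains were Itgad, Itgae, Itgal, Itgam and Itgax with the beta chains Itgb2 and Itgb7. Itgax, the CD11c chain of dendritic cells and some macrophages (chromosome 7, 128129547 to 128150657, plus strand), lay between 5.25 and 6.28 in KO tumors, with a median of 6.01. It was at the floor in all 6 MSC libraries, at 4.51 in the first batch and 4.99 in the second. All KO tumors were above the floor. Itgax rose against WT MSC by 1.10 ± 0.26 on the stabilized scale (adjusted p = 0.0131). The call was lost without WT MSC 1, in batch 2 alone and with the replicate block (adjusted p up to 0.102 over the alternatives). Against KO MSC the difference was 1.10 ± 0.29 and missed the threshold (adjusted p = 0.0504), and it passed in 4 of 18 alternatives, without KO tumor 2 among them (adjusted p from 0.0163 to 0.323). Of the 12 macrophage markers, 11 rose in the same tumors against WT MSC.

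Itgam, the CD11b chain of myeloid cells (chromosome 7, 128062640 to 128118491, plus strand), lay between 6.75 and 10.08 in KO tumors, with a median of 7.44, at 7.87, 6.46 and 5.79 in KO MSC and at 6.23, 6.94 and 5.79 in WT MSC. Its partner Itgb2 lay between 6.72 and 11.53 in KO tumors, with a median of 8.74, at 8.49, 8.29 and 6.08 in KO MSC and at 7.32, 7.46 and 6.95 in WT MSC. Both overlapped between tumors and MSC and neither passed, with 1.61 ± 0.71 for Itgam (adjusted p = 0.126) and 1.63 ± 0.78 for Itgb2 (adjusted p = 0.154) in KO tumors against WT MSC. Within the batches the differences from KO MSC had opposite signs, -0.83 and 2.70 for Itgam and -0.38 and 2.45 for Itgb2. Neutrophils also carry this pair. Of 9 tested neutrophil markers, 5 fell in KO tumors against KO MSC (2.28% of tested genes) and 2 against WT MSC (10.9%). Their sums were 48.7 to 70.6 in KO tumors, 71.9 to 103.8 in KO MSC and 62.1 to 90.6 in WT MSC, with 1 to 3 at the floor in a tumor, 0 in KO MSC and 0 to 3 in WT MSC.

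The promoters of Itgam and Itgax, neighbors on chromosome 7, are shown for the motif GAGGAA, a core bound by PU.1, an Ets factor of blood cells. They are RefSeq sequences of build GRCm38.p6, plus strand, at chr7:128062390-128062689 and chr7:128129300-128129599, with GAGGAA or its reverse complement TTCCTC in capitals. Itgam held 1 copy forward and 2 in reverse, and the Itgax window held none. Of 3 leukocyte integrin promoters matched, 2 held the motif (Itgam and Itgb7), and 28.3% of all promoters did. Of the 25 promoters matched to integrin and laminin genes of any kind, 13 held it, so it was not particular to the leukocyte chains. A match is a description and not a binding site, and its absence says only that these letters are not in this window.
Itgam: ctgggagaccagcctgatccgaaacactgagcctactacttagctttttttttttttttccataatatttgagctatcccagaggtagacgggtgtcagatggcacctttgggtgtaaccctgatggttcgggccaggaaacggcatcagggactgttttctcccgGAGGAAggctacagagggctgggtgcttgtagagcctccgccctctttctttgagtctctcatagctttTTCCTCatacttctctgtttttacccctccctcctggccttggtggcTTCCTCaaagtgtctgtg
Itgax: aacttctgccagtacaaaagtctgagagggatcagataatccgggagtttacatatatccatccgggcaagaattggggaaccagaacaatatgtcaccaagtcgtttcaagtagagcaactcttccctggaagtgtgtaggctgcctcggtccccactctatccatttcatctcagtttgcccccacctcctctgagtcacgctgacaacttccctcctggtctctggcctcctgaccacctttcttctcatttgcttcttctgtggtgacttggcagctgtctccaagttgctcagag

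Itgal, the LFA-1 chain, lay between 5.68 and 7.48 in KO tumors, at 7.21, 5.23 and 5.23 in KO MSC and at 5.52, 6.03 and 5.23 in WT MSC, and did not pass (0.81 ± 0.44 against WT MSC, adjusted p = 0.206). Itgb7, the partner of alpha4 and alphaE on lymphocytes, lay between 6.69 and 12.55 in KO tumors, at 6.58, 7.87 and 5.52 in KO MSC and at 6.17, 5.95 and 6.81 in WT MSC. The tumors' upper end was KO tumor 4, and Itgb7 did not pass (2.24 ± 1.04 against WT MSC, adjusted p = 0.143), except without that tumor (adjusted p from 0.0487 to 0.393 over the alternatives). Of 10 lymphocyte markers, 2 rose in KO tumors against KO MSC (2.70% of tested genes) and 3 against WT MSC (10.4%). Their sums were 57.6 to 73.6 in KO tumors, 51.1 to 59.3 in KO MSC and 51.2 to 54.6 in WT MSC. Itgae, the alphaE chain, was at the floor in 8 of 12 libraries. Itgad was at the floor in 10 of 12 and was the 1 gene of the 36 that could not be tested.

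Among the other beta chains, Itgb1, the partner of most chains above (chromosome 8, 128685654 to 128733200), lay between 10.55 and 12.27 in KO tumors, with a median of 11.56. It was at 11.86, 12.34 and 10.93 in the libraries labelled KO MSC and at 12.54, 13.44 and 12.85 in WT MSC. All WT MSC libraries were above all others, while KO tumors and KO MSC overlapped. Itgb1 fell by 1.43 ± 0.46 in KO tumors against WT MSC (adjusted p = 0.0464). The call is fragile: it held in 4 of 17 alternatives, with an adjusted p from 0.00356 to 0.161. Leaving out any WT MSC library or KO tumor 3, 5 or 6 ended it. It was also lost with no filter, with the second table, with upper-quartile scaling and with batch as a covariate. The same held for batch 2 alone, 1 fit of all 12 libraries and the replicate block.

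Itgb3, the beta chain of the vitronectin receptor on osteoclasts and of the fibrinogen receptor on platelets (chromosome 11, 104608000 to 104670476, plus strand), lay between 7.73 and 10.74 in KO tumors, with a median of 8.87. It was at 5.75, 7.59 and 6.34 in the libraries labelled KO MSC and at 6.93, 9.73 and 8.20 in WT MSC. KO tumors were all above KO MSC, and WT MSC overlapped both. Itgb3 rose by 2.49 ± 0.63 in KO tumors against KO MSC (adjusted p = 0.0453), with 3.60 and 1.78 within the batches. This call too is fragile, since leaving out any library but KO tumor 2 ended it, and the adjusted p ran from 0.0337 to 0.275 over the alternatives. The Itgb3 call was also lost with no filter, with batch as a covariate, in batch 2 alone and with the replicate block. Of 8 megakaryocyte and platelet markers, 1 rose in KO tumors against KO MSC (2.70% of tested genes). Against WT MSC, 1 rose (10.4%) and 1 fell (10.9%). Their sums were 44.5 to 54.8 in KO tumors, 41.7 to 45.4 in KO MSC and 45.6 to 57.7 in WT MSC.

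Itgb5, another partner of alphaV (chromosome 16, 33829665 to 33949338), lay between 8.07 and 10.68 in KO tumors, with a median of 9.35. It was at 8.56, 8.87 and 8.40 in the libraries labelled KO MSC and at 10.14, 10.55 and 10.33 in WT MSC. The MSC groups did not overlap, and tumors covered both. The difference between KO MSC and WT MSC was -1.73 ± 0.34, with -1.58 and -1.81 within the batches and an unadjusted p of 0.000984 that did not pass adjustment. Itgb4, the partner of alpha6 in hemidesmosomes, Itgb6, an epithelial partner of alphaV, and Itgb8, an alphaV partner that frees TGF-beta, were at the floor in 5, 5 and 7 of 12 libraries and passed in no comparison. Their highest values were 6.76, 6.87 and 5.44, all in KO tumors.

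**Figure D3:**
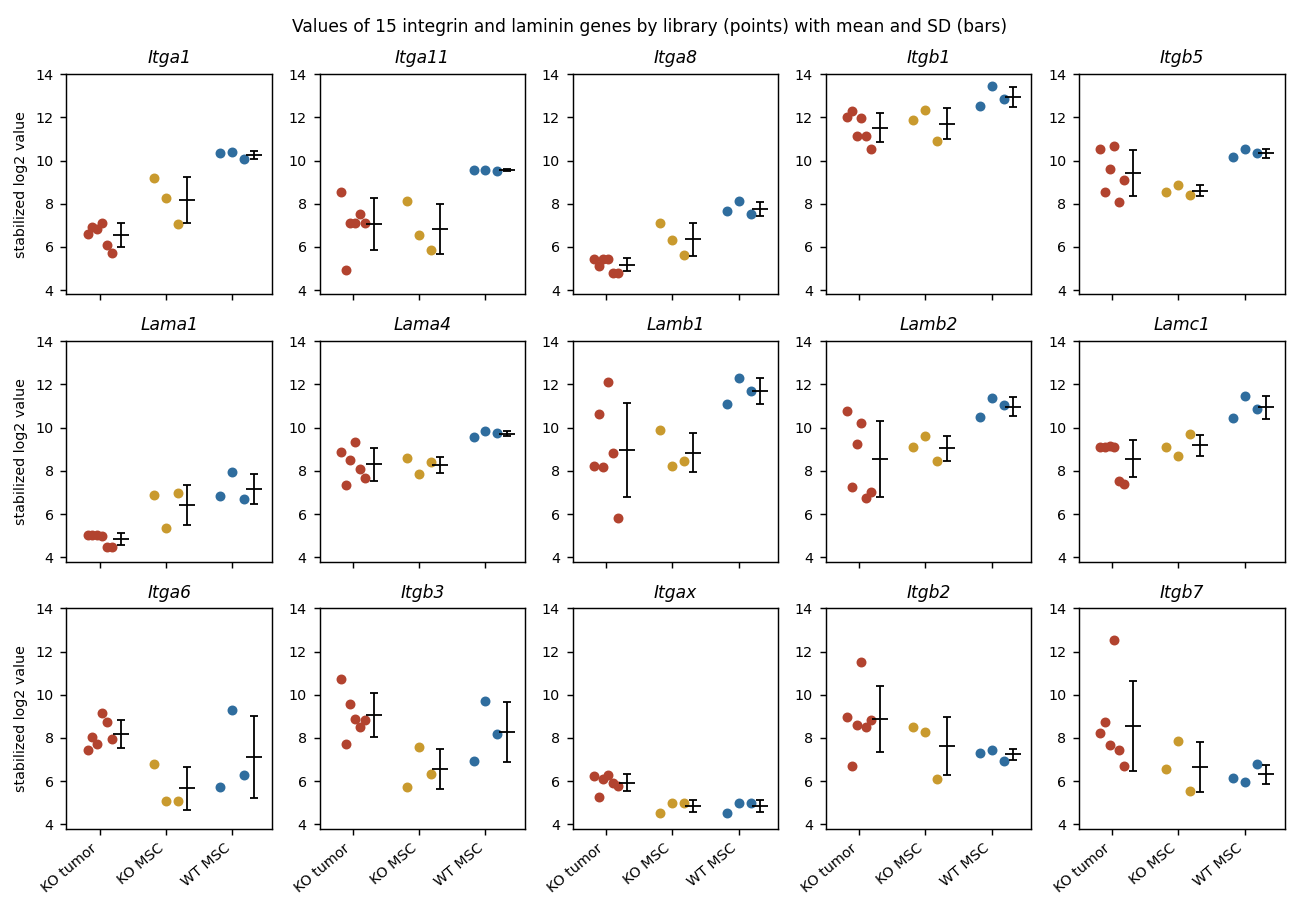
Stabilized log2 value (vertical axes) in each library of 15 integrin and laminin genes, 1 panel a gene, with KO tumors left of KO MSC and WT MSC; each point is 1 library, and the black mark beside each group is its mean with the SD. KO tumors lie below all WT MSC libraries for Itga1 (5.70 to 7.12 against 10.06 to 10.38) and above all KO MSC libraries for Itga6 (7.43 to 9.18 against 5.10 to 6.81).

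Of the 5 laminin alpha chains, Lama1 and Lama4 passed. Lama1, the chain of early embryonic and some epithelial basement membranes (chromosome 17, 67697259 to 67822647, plus strand), was at the floor in 5 of 6 KO tumors, with values of 4.49 to 5.01. These ends are the floors of the batches, 5.01 in KO tumors 1 to 3 and 4.49 in KO tumors 5 and 6. The SEs below take in this offset. Lama1 was at 6.89, 5.34 and 6.98 in the libraries labelled KO MSC and at 6.84, 7.96 and 6.71 in WT MSC, and in no MSC library at the floor. Both MSC groups were above every tumor and overlapped each other. Lama1 fell by 2.33 ± 0.30 in KO tumors against WT MSC (adjusted p = 0.00132) and by 1.57 ± 0.34 against KO MSC (adjusted p = 0.0261). The first call held in all 17 alternatives. The second was lost without KO MSC 1 or 3 or KO tumor 5 or 6 (adjusted p up to 0.209). It was also lost in batch 2 alone and with the replicate block.

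Lama4, the chain of vessel and stromal laminins (chromosome 10, 38965515 to 39110188), lay between 7.33 and 9.34 in KO tumors, with a median of 8.29. It was at 8.58, 7.86 and 8.40 in the libraries labelled KO MSC and at 9.58, 9.85 and 9.75 in WT MSC. WT MSC libraries were above all others, and tumors and KO MSC overlapped. Lama4 fell by 1.43 ± 0.43 in KO tumors against WT MSC (adjusted p = 0.0373). The call held in 7 of 17 alternatives (adjusted p up to 0.193). Leaving out any WT MSC library or KO tumor 2, 3, 5 or 6 ended it. So did batch as a covariate, batch 2 alone and the replicate block. The fall was found in tumors in which 8 of 10 endothelial markers rose against WT MSC, and a link of Lama4 to these markers was not tested. Lama2, the chain of muscle and nerve laminins, lay between 5.25 and 6.75 in KO tumors, 5.88 and 6.65 in KO MSC, and 5.27 and 6.63 in WT MSC. Lama5, a widespread chain, lay between 5.60 and 7.01 in KO tumors, 5.19 and 6.44 in KO MSC, and 5.89 and 6.93 in WT MSC, and Lama3, an epithelial chain, was at the floor in 5 of 12 libraries.

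Of the beta chains, Lamb1 and Lamb2 combine with alpha4 and gamma1. Lamb1 (chromosome 12, 31265234 to 31329644) lay between 5.79 and 12.11 in KO tumors, with a median of 8.52. It was at 9.87, 8.21 and 8.45 in the libraries labelled KO MSC and at 11.08, 12.31 and 11.71 in WT MSC. The MSC groups did not overlap, while the tumors overlapped both. Between KO MSC and WT MSC its difference was -2.85 ± 0.55, the largest of the 35 genes there, with -1.21 and -3.68 within the batches and an unadjusted p of 0.000851 that did not pass adjustment. In KO tumors against WT MSC it was -2.74 ± 1.09 (adjusted p = 0.101), and it passed with quantile scaling, with the replicate block and without KO tumor 4 (adjusted p from 0.0202 to 0.301 over the alternatives).

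Lamb2 (chromosome 9, 108479736 to 108490530) lay between 6.74 and 10.77 in KO tumors, with a median of 8.24, at 9.09, 9.61 and 8.46 in the libraries labelled KO MSC and at 10.49, 11.38 and 11.06 in WT MSC. Again the MSC groups did not overlap and the tumors overlapped both. The difference was -1.92 ± 0.44 between KO MSC and WT MSC (unadjusted p = 0.00234) and -2.44 ± 0.89 in KO tumors against WT MSC (adjusted p = 0.074), and neither passed. The second passed with quantile scaling and without KO tumor 1 or KO tumor 4 (-1.89 to -3.23, adjusted p from 0.026 to 0.186 over the alternatives). Lamb3, the beta chain of the epithelial laminin, was at the floor in 9 of 12 libraries.

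Lamc1, the gamma chain of most laminins (chromosome 1, 153218922 to 153332786, minus strand), lay between 7.38 and 9.15 in KO tumors, with a median of 9.10. It was at 9.11, 8.71 and 9.70 in the libraries labelled KO MSC and at 10.45, 11.48 and 10.88 in WT MSC. WT MSC libraries were above all others. Lamc1 fell by 2.37 ± 0.50 in KO tumors against WT MSC (adjusted p = 0.00791), with -1.33 and -3.17 within the batches. The call held in 16 of 17 alternatives and was lost in batch 2 alone (adjusted p = 0.0514). Between KO MSC and WT MSC its difference was -1.76 ± 0.43 (unadjusted p = 0.00367), and against KO MSC the tumors overlapped the MSC. Lamc3 was at the floor in 8 of 12 libraries.

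**Figure D4:**
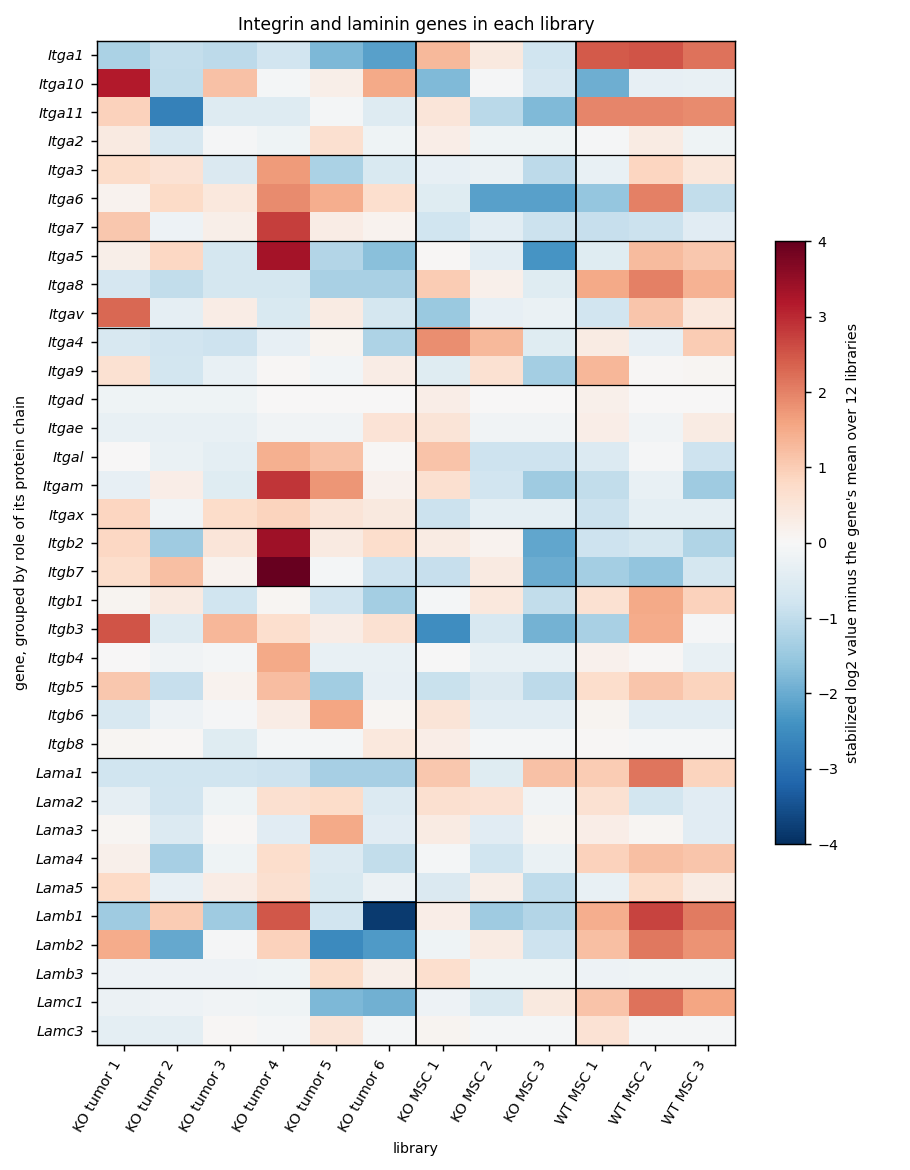
Stabilized log2 value of integrin and laminin genes (rows, by role) in each library (columns, KO tumors left of KO MSC and WT MSC), shown as the difference from that gene's mean over the 12 libraries. Itga1, Itga8, Itga11 and Lamc1 are lower across KO tumors than in WT MSC, and the darkest single cell is Itgb7 in KO tumor 4, whose value was 12.55.

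The SD over the 6 KO tumors was above the SDs over both groups of 3 MSC libraries in 21 of the 36 genes, and in the other 15, Itga1, Itga4, Itga6 and Itgb3 among them, it was not. The median SD of the 36 genes was 0.76 over KO tumors, 0.61 over KO MSC and 0.40 over WT MSC, beside 0.53, 0.50 and 0.29 over all tested genes. These SDs come from groups of unequal size and their difference was not tested. In the 17 genes with a library at the floor, they can also hold the difference between the floors of the batches. The tumor SD of Itgad, 0.09, came from floor values alone. In 10 genes the tumors spanned over 3 log2 units, led by Lamb1 (6.32), Itgb7 (5.86), Itga5 (5.01) and Itgb2 (4.80), followed by Itga10, Lamb2, Itga11, Itgam, Itgb3 and Itgav. KO tumor 4 was highest in 15 of the 36, beside 33.4% of tested genes, and KO tumor 1 in 9, beside 16.6%. A tie at the floor was counted for the first tumor of the tie, as for Itgad in KO tumor 4 and Lama1 in KO tumor 1. The shares over all tested genes were counted in the same way, which favors these tumors, the first of their batches. KO tumor 4 also had the highest macrophage, endothelial and skeletal muscle marker means, 13.14, 9.21 and 14.57. KO tumor 1 had the highest value of the 6 tumors for Itgb3, Itgav, Itga10, Itga11 and Lamb2.

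The proteins that integrins and laminins work with were followed in 4 lists. Of 12 basement membrane partners of laminins, 2 rose (10.4% of tested genes) and 4 fell (10.9%) in KO tumors against WT MSC. Nid2 and Nid1, the nidogens that link laminin to collagen IV, fell by 3.36 ± 0.63 (adjusted p = 0.00472) and 2.47 ± 0.76 (0.0406), the collagen IV chain gene Col4a1 by 2.68 ± 0.70 (0.0209), and Col4a2 by 3.0 ± 0.95 (0.0463). Col15a1 and Col4a5 rose by 1.62 ± 0.49 (0.0372) and 0.94 ± 0.30 (0.0458). Against KO MSC, 1 rose (2.70% of tested genes), Hspg2, which encodes perlecan (3.89 ± 0.71, adjusted p = 0.0134), and none fell (2.28%). Between KO MSC and WT MSC none passed, with a median of -1.22 and differences of -2.93 ± 0.59 for Col4a2 and -2.87 ± 0.59 for Col4a1.

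Of 15 integrin ligands and counter-receptors, 3 rose and 3 fell in KO tumors against WT MSC, beside 10.4% and 10.9% of tested genes. Against KO MSC 2 rose and 1 fell, beside 2.70% and 2.28%. Fn1, which encodes fibronectin, the ligand of the alpha5 chain, rose by 5.68 ± 0.97 against WT MSC (adjusted p = 0.00299) and by 6.57 ± 0.89 against KO MSC (0.00436). Vcam1, the counter-receptor of the alpha4 chain, fell by 4.44 ± 0.59 against WT MSC (0.00142) and by 3.52 ± 0.55 against KO MSC (0.00674). Icam1, the counter-receptor of beta2 integrins, and Vtn, which encodes vitronectin, fell by 2.82 ± 0.50 (0.00378) and 2.59 ± 0.50 (0.00523) against WT MSC. Postn, which encodes periostin, rose by 5.56 ± 1.32 against KO MSC (0.0356) and by 4.62 ± 1.35 against WT MSC (0.0331). Icam2, an endothelial counter-receptor of beta2 integrins, rose by 2.78 ± 0.56 against WT MSC (0.00652). None passed between KO MSC and WT MSC, where the median was -0.92.

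Of 22 partners at the cytoplasmic tails of integrins, 1 rose and 2 fell in KO tumors against WT MSC, no larger shares than the 10.4% and 10.9% of tested genes. Itgb1bp1, whose protein binds the beta1 tail, rose by 2.41 ± 0.44 (adjusted p = 0.00422), while Vcl, which encodes vinculin, fell by 2.04 ± 0.45 (0.0101) and Tns2, a tensin gene, by 2.44 ± 0.72 (0.0348). Against KO MSC, Itgb1bp1 rose by 2.12 ± 0.48 (0.0303) and Fermt2, the gene of the integrin activator kindlin-2, by 1.98 ± 0.48 (0.039), and none fell, beside 2.70% and 2.28% of tested genes. None passed between KO MSC and WT MSC, where the median of the list was -1.0. Of 6 laminin receptors and partners outside the integrins, 2 fell and 0 rose in KO tumors against WT MSC. The shares of tested genes were 10.9% and 10.4%. Dag1, which encodes dystroglycan, fell by 2.91 ± 0.48 (0.00278), and Sdc1 also fell (adjusted p = 0.0334). None of the 6 passed against KO MSC or between KO MSC and WT MSC.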

How the data were processed

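Marrow MSCs and tumors of mice were profiled with SMART-Seq v4, a kit for low RNA input, and libraries that do not mark strand, per the labels' protocols. TopHat2 2.0.13, Cufflinks 2.2.1, Cuffdiff and build mm10 are named in the submitters' processing notes, with no further steps in the sources used here. The authors deposited log2 values of 24421 genes, whose title calls them variance-stabilized and adjusted for batch. A second table deposited by the authors, titled as normalized counts, holds a score: 100 times the same value, rounded and scaled by 1 factor a library, in 100% of its 18949 genes (tolerance 0.01). Reads cannot be had from either, so the depth is unknown and no count test was run. The score table was used as a filter on low genes and as an alternative.

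The deposited log2 values were compared with limma 3.58.1 in R 4.3.3 (lmFit, eBayes with trend, two-sided, no covariates), each comparison on its own groups. P-values were adjusted by the Benjamini-Hochberg method over 18948 genes with varying values, with a threshold of 0.05. The authors' batch adjustment came before this, and p-values take no account of it. Floors, and the 2 batches, were found from values shared exactly between libraries. The fit was tested on simulated data. Members and lists were chosen with earlier results of these data known. The genes are named in the text, except 1 that is counted but not reported here. Values are given by library in MSC, and as a range, mostly with the median, in KO tumors. This was done for integrin and laminin genes that passed and for the 5 with the smallest unadjusted p between MSC groups. Of each pathway list, up to 4 genes with the smallest adjusted p in a comparison are named, without values by library. Col4a2, Col4a5, Icam2 and Postn (against WT MSC) were added after their values were seen. Alternatives were quantile and upper-quartile scaling, no filter, the second table, batch as a covariate, batch 2 alone, all 12 libraries in 1 fit, a replicate block and leaving out each library. Promoters are from RefSeq (GRCm38.p6), with 22 of the 36 genes matched, and gene positions are from GENCODE M21.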

Additional observations from a re-analysis of the deposited data

Results flagged for a closer look

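In 5 of the 36 genes, 1 KO tumor lay far from the other 5 (gap over range above 0.625, Dixon's 95% value for 6 samples). For normally spread values chance gives about 1 in 20 groups, but the same rule took 10.2% of the 18948 tested genes, and 6.23% of the 12525 with no tumor at the floor. Of the 25 integrin and laminin genes with no tumor at the floor it took 2, Itgav and Itgb7. The other 3 had tumors at the floor (2 for Itgb4, 3 for Lama3 and 5 for Itgae), where a tumor above the floor is easily taken. Itgb7 was at 12.55 in KO tumor 4, and the next tumor was at 8.72. Itgb4 was at 6.76 in KO tumor 4, and the next was at 5.26. Itgav was at 12.06 in KO tumor 1, and the next was at 10.09. Lama3 was at 6.77 in KO tumor 5, and the next was at 5.33. Itgae was at 5.51 in KO tumor 6, and the other 5 tumors were at the floor, the nearest at 4.83.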

How the results depend on the processing

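The depth of the libraries is unknown, and differences of genes near the floor are understated. Against KO MSC, the 2 higher and 1 lower genes became 1 higher with no filter, 1 higher and 2 lower with batch as a covariate, 4 higher and 2 lower in 1 fit of all 12 libraries, and 0 higher and 0 lower in batch 2 alone. Quantile scaling gave 4 lower and upper-quartile scaling 2 lower. Leaving out 1 library gave 0 to 3 higher and 0 to 3 lower, and leaving out the libraries labelled KO MSC 1 and 2, chosen after seeing the data, gave 0 higher. Against WT MSC, the 1 higher gene became 2 with upper-quartile scaling, 0 in batch 2 alone and 0 to 3 without 1 library, and the 7 lower became 4 in batch 2 alone and 4 to 9 without 1 library. Between KO MSC and WT MSC, 6 genes (Itga1, Itga8, Itga11, Itgb5, Lamb1 and Lamb2) fell without the libraries labelled KO MSC 1 and 2, and this rests on 1 library assumed to vary like WT MSC. The cause of these changes was not tested.

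The replicate block left 0 higher and 0 lower genes against KO MSC (34 of 944 calls over all genes), 0 higher and 5 lower against WT MSC (1445 of 4033) and no call between MSC groups. Same-numbered libraries had correlations of -0.22, -0.07 and 0.22 between KO tumor and KO MSC. The values were -0.32, -0.09 and 0.01 between KO tumor and WT MSC, and 0.24, 0.15 and -0.15 between KO MSC and WT MSC. Not every library correlated best with its own number. With so few libraries a group, these correlations cannot decide whether the numbers pair samples.

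Over all genes, the 944 calls against KO MSC were 229 in batch 2 alone, 1923 in 1 fit of all libraries, 1481 with quantile scaling and 113 to 1627 without 1 library. The 4033 against WT MSC were 775 in batch 2 alone and 1856 to 4737 without 1 library. The 0 between MSC groups, with 1637 genes at an unadjusted p under 0.05, were 3171 without the libraries labelled KO MSC 1 and 2. Of the values of single genes under alternatives, 1528 kept their direction and side of the threshold, 55 lost the call and 30 gained it. Another 132 differed in sign from the reported fit with no call in either, and 0 differed in sign with a call.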

Other observations

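Itga2b, the integrin alpha chain of platelets, whose symbol lies outside the pattern that chose the 36 genes, passed in no comparison. It lay between 5.05 and 6.59 in KO tumors, at 5.40, 6.03 and 6.41 in the libraries labelled KO MSC, and at 8.08, 5.55 and 5.55 in WT MSC.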
